A study of Arabidopsis thaliana with 24 samples.

Results

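The chloroplast-encoded photosynthesis genes are the genes of the plastid genome whose symbols begin with psa (photosystem I), psb (photosystem II), pet (the cytochrome b6f complex), atp (ATP synthase), ndh (the NDH complex) or rbc (Rubisco). They were chosen by locus tag and symbol, with no measured value used, and a gene counted as a member when a probe set of the array annotation named it alone. Of 44 such gene symbols in the reference, 43 had such a probe set, and each of the 43 had exactly 1. They were 5 genes of photosystem I, 15 of photosystem II, 6 of the cytochrome b6f complex, 6 of ATP synthase, 10 of the NDH complex and rbcL, the large subunit of Rubisco. The missing one is ndhB, which has 2 copies and shares its probe set, and it was not analysed here. The members are 43 of 69 plastid genes and of 13286 genes that could be named in this way.

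The light reactions run through photosystem II, the cytochrome b6f complex and photosystem I in series, while ATP synthase uses the proton gradient they build and the NDH complex returns electrons to the plastoquinone pool. Every one of these complexes is a mosaic of chloroplast-encoded and nucleus-encoded subunits, so a chloroplast needs both genomes to make it. Plastid genes lie in clusters that are often transcribed into one RNA and then cut, and polymerases of nuclear and of plastid origin share the work. Plastid RNAs mostly lack a stable poly(A) tail, whereas kits of the kind used to amplify these samples usually start from such tails.

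RNA came from whole Arabidopsis thaliana plants on soil under short days, and each sample was hybridized to 1 ATH1 array, a 1-colour array with probe sets for most nuclear and many plastid genes. The 24 arrays form 8 groups of 3. These are the single insertion mutant mkk1 24 h after BTH and untreated, the single insertion mutant mkk2 24 h after BTH and untreated, the double mutant mkk1/mkk2 24 h after BTH and untreated, and the wild type Col-0 24 h after BTH and untreated. BTH (benzothiadiazole) is a synthetic activator of salicylic acid defence, sprayed at 100 µM where a dose is stated, and MKK1 and MKK2 are mitogen-activated protein kinase kinases. Each mutant genotype is represented by 1 insertion line or, for the double mutant, 1 combination. The untreated Col-0 plants were taken at time 0, no time is given for the untreated mutants, and no group is labelled as sprayed with a blank solution, so BTH is not separated from spraying or from the passing of 24 h. The treatment notes name the spray for the BTH samples of mkk2 and mkk1/mkk2 alone. For Col-0 and mkk1 only titles or source names mark which samples had BTH. Nothing in the labels says that replicates were separate plants or pools, so p-values measure only the spread between these samples, which may be technical. All values are log2 signals, a difference of 1 is 2-fold, and in whole-plant RNA fewer green cells, fewer chloroplasts per cell and less RNA per chloroplast cannot be told apart.

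Some features of the arrays run with the groups. The difference between the spiked-in control transcripts bioC and bioD lay between -3.82 and -3.54 on the 12 arrays of mkk1 and mkk2. It lay between -2.505 and -2.01 on the 12 arrays of mkk1/mkk2 and Col-0. By this measure alone the arrays fall into separate sets, which the labels do not name. For single mutants against Col-0, genotype and array set cannot be told apart. The untreated mkk1/mkk2 array A had a mean correlation of 0.93 with the other arrays of its group, the lowest of all. With BTH-treated Col-0 A and untreated mkk2 B it forms the 3 arrays that stand apart, and results that turn on them are given with and without them. Only the comparison of mkk1/mkk2 with Col-0 and those of BTH with untreated within a genotype stay inside 1 set by this measure. Inside it the groups also differed. BTH-treated mkk1/mkk2, at -2.505 to -2.40, lay below BTH-treated Col-0, at -2.265 to -2.155, and untreated mkk1/mkk2, at -2.29 to -2.015. The part of array handling in these comparisons was not tested.

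In untreated mkk1/mkk2 plants the chloroplast-encoded photosynthesis genes were lower than in untreated Col-0 in every complex. Of the 43 members, 33 fell (limma, adjusted p under 0.05 after Benjamini-Hochberg adjustment over 22746 probe sets) and 0 rose, while 17.2% of all probe sets fell and 33.3% were called in either direction. The median change of the members was -1.17 on the log2 scale, that of all probe sets -0.01. The 3 arrays of untreated mkk1/mkk2 lay wholly below those of Col-0 for 30 members, which holds for 18.6% of all probe sets. The mean signal over the 43 members was 9.19, 9.17 and 8.72 on the 3 untreated mkk1/mkk2 arrays A, B and C, against 11.08, 10.27 and 9.92 on those of Col-0. The number called was 38 without the 3 arrays that stand apart, 37 without untreated mkk1/mkk2 A, 22 without untreated Col-0 A, and 11 when only the 6 arrays of the 2 groups were fitted.

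**Figure D1:**
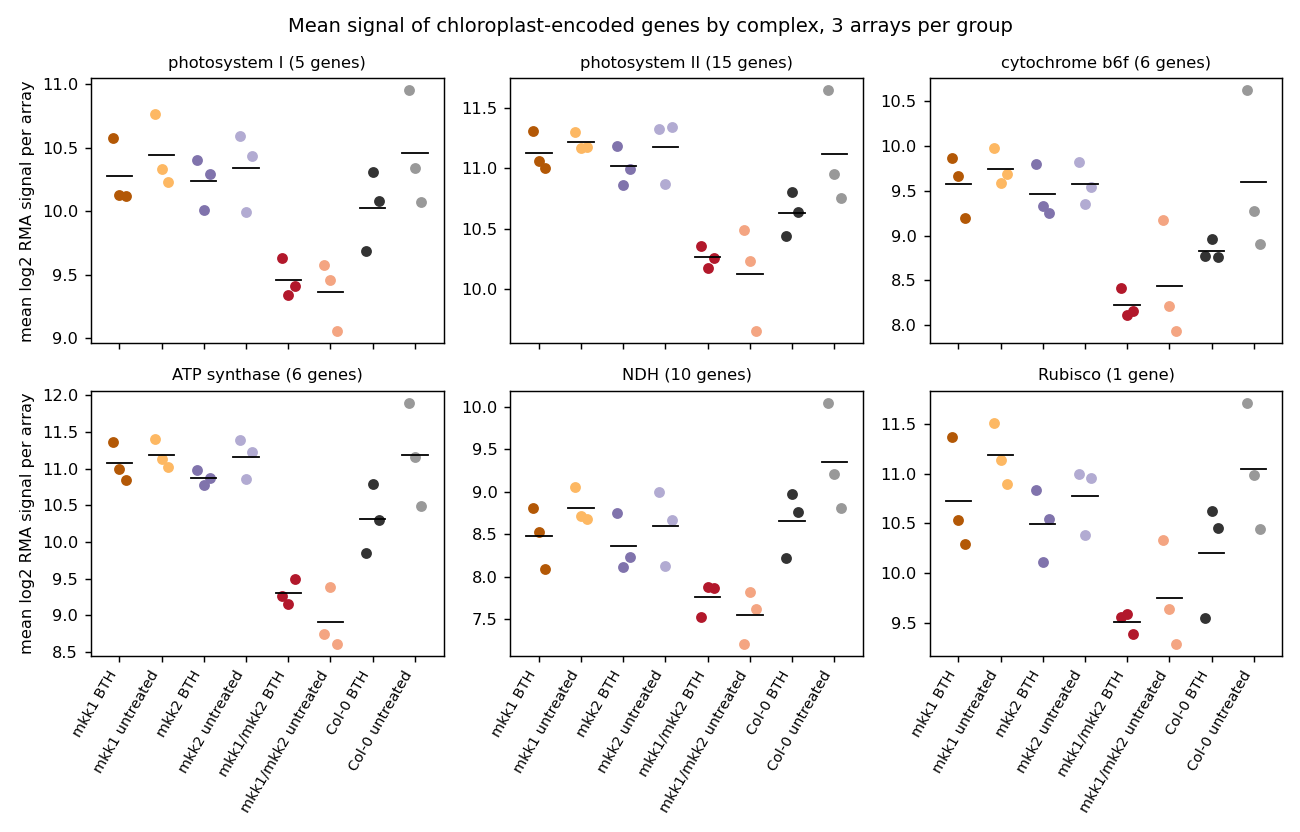
Mean log2 signal of the members of each complex (vertical axes, which do not start at 0 and differ between panels) on each of 24 arrays, by group (horizontal axis), with group means as black lines. In every panel but that of cytochrome b6f, where array A reads 9.17 against 8.90 on Col-0 C, the untreated mkk1/mkk2 arrays lie below all untreated Col-0 arrays, and the widest gap between the group means is in ATP synthase, at 8.91 against 11.18.

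ATP synthase showed the largest median change of the complexes, at -2.48, and all 6 of its members fell. The enzyme has a catalytic head, to which atpA, atpB and atpE contribute the alpha, beta and epsilon subunits, and a membrane part, to which atpF, atpH and atpI contribute. The signal of atpA was 7.46, 8.23 and 6.53 on the untreated mkk1/mkk2 arrays A, B and C, against 11.69, 11.83 and 10.02 on those of Col-0. The groups did not overlap, and the change was -3.77 ± 0.92 (SE, n = 3 each, adjusted p = 0.00314 by limma), or 13.7-fold lower, the largest among the members. For atpI, the subunit a of the proton channel, the values were 5.33, 5.69 and 4.73 in untreated mkk1/mkk2 and 9.99, 8.29 and 7.46 in Col-0, a change of -3.33 ± 0.52 (adjusted p = 4.04e-05 by limma). For atpF, a subunit of the stalk, they were 6.48, 7.36 and 6.66 in untreated mkk1/mkk2 and 11.01, 9.58 and 8.93 in Col-0, a change of -3.01 ± 0.42 (adjusted p = 1.06e-05 by limma), the smallest adjusted p among the members. The ring subunit atpH changed by -1.96 ± 0.53 (adjusted p = 0.00633 by limma), with 1 array of untreated mkk1/mkk2 inside the range of Col-0.

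The other pair of ATP synthase genes, atpB and atpE, changed much less, by -0.82 ± 0.30 and -0.72 ± 0.23 (adjusted p = 0.0444 and 0.0209 by limma). The signal of atpB was 11.30 on untreated mkk1/mkk2 A but 13.19 and 13.17 on B and C, against 13.40, 13.36 and 13.36 in Col-0. Array A was the low one, without it the differences were -0.19 for atpB and -0.25 for atpE, neither past the threshold, and across 32 alternative fits atpB was past it in 10. The member farthest from the median of its complex was atpE, whose coding sequence overlaps that of atpB. Their 2 probe sets also had the brightest signals in the complex, with means of 13.28 for atpB and 13.23 for atpE over 24 arrays.

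The NDH complex came next, with 9 of 10 members lower and a median change of -2.15. It has a peripheral arm, which holds the products of ndhH, ndhI, ndhJ and ndhK, and a membrane arm, which holds those of ndhA, ndhC, ndhD, ndhE, ndhF and ndhG. Among the genes of the peripheral arm, ndhK read 5.29, 7.07 and 6.60 in untreated mkk1/mkk2, against 9.99, 9.75 and 8.75 in Col-0. This was a change of -3.18 ± 0.54 (SE, n = 3 each, adjusted p = 9.61e-05 by limma), 9.04-fold lower, without overlap. Its neighbour ndhJ read 7.97, 8.30 and 8.07 in untreated mkk1/mkk2, against 11.03, 10.65 and 10.14 in Col-0, a change of -2.49 ± 0.43 (adjusted p = 0.000134 by limma). The gene ndhH changed by -2.48 ± 0.46 and ndhI by -1.35 ± 0.49, but of the untreated mkk1/mkk2 arrays A read 9.54 for ndhI while B read 12.64 and C 12.46. Leaving A out gave a difference of -0.34 for ndhI, not past the threshold (adjusted p = 0.209 by limma).

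Within the membrane arm, ndhG changed by -2.43 ± 0.51, ndhE by -2.35 ± 0.54, ndhA by -1.94 ± 0.56, ndhF by -0.73 ± 0.23 and ndhC by -0.41 ± 0.09, all past the threshold. For ndhC, the member farthest from the median of the complex, the values were 10.79, 11.05 and 10.95 in untreated mkk1/mkk2, against 11.39, 11.32 and 11.32 in Col-0. The change of ndhC was small, but its arrays were so close together that the groups did not overlap. The probe set of ndhF had the lowest signal of any member, with a mean of 3.55 over 24 arrays, and its change rests on values near the bottom of the scale. The exception in the complex was ndhD, at -0.73 ± 0.45 (adjusted p = 0.244 by limma). Without array A ndhD did pass, at -1.31 (adjusted p = 0.0168 by limma). For ndhA array A stood below the others of untreated mkk1/mkk2, at 7.19 against 10.46 and 10.46, and without it the change was -0.85 (adjusted p = 0.0250 by limma).

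**Figure D2:**
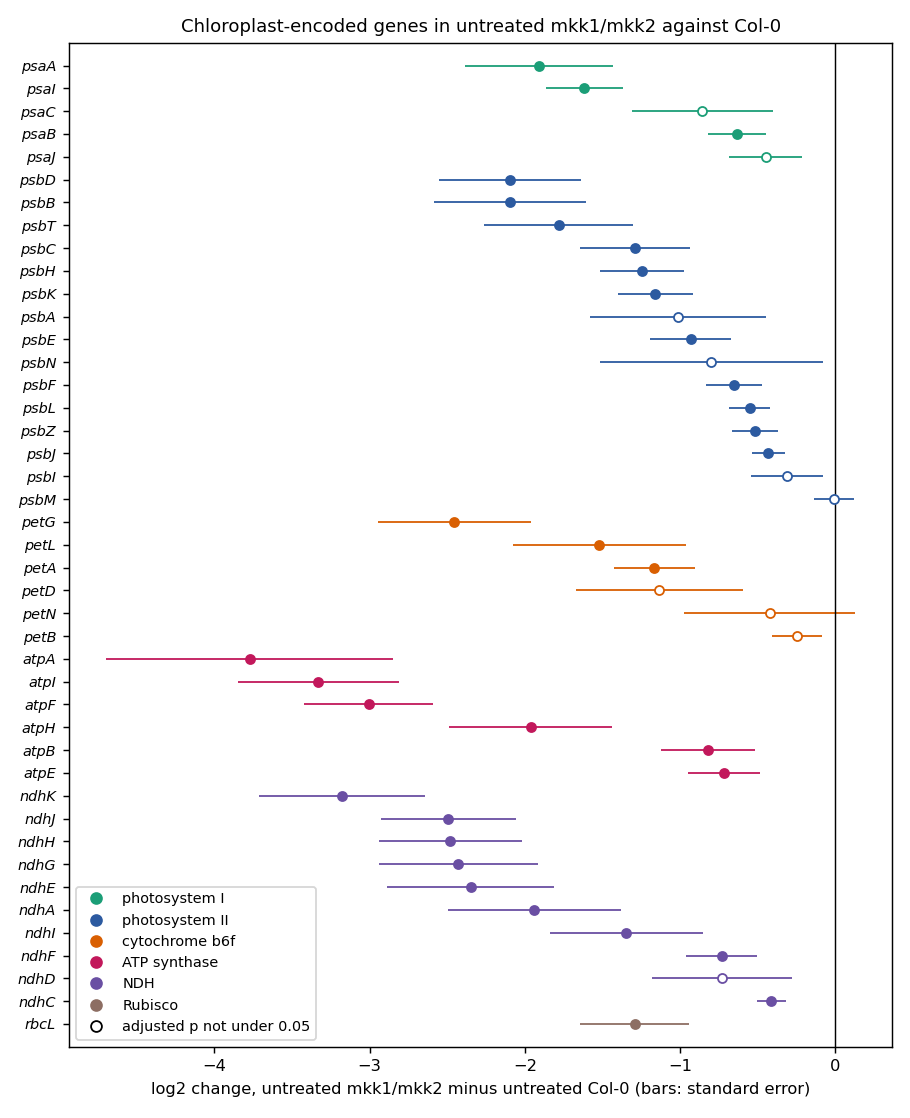
Log2 change of each of the 43 members in untreated mkk1/mkk2 minus untreated Col-0 (horizontal axis, bars are 1 standard error from limma), grouped by complex down the page, with open points for members whose adjusted p was not under 0.05. All 43 points lie below 0, from -3.77 for atpA to -0.01 for psbM, and the 4 lowest are atpA, atpI, ndhK and atpF.

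Photosystem II had 11 of 15 members lower, with a median change of -0.93. Its reaction centre is built on the D1 and D2 proteins, from psbA and psbD, and its inner antenna on the products of psbB and psbC. The signal of psbD was 8.37, 8.48 and 7.39 in untreated mkk1/mkk2, against 11.51, 9.85 and 9.16 in Col-0. The groups did not overlap, and the change was -2.09 ± 0.46 (SE, n = 3 each, adjusted p = 0.00121 by limma), 4.27-fold lower. The antenna genes psbB and psbC changed by -2.09 ± 0.49 and -1.29 ± 0.36 (adjusted p = 0.00216 and 0.00775 by limma). For psbA the difference was -1.02 ± 0.57, short of the threshold (adjusted p = 0.192 by limma, 95% interval -2.20 to 0.17). Its arrays read 12.20, 9.67 and 8.91 in untreated mkk1/mkk2, against 11.93, 10.94 and 10.96 in Col-0. Array A was thus the highest of all 6 for psbA, while B and C lay below every Col-0 array, and without A the change of psbA was -1.99 and passed the test (adjusted p = 0.000616 by limma).

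The small subunits of photosystem II ranged widely. Past the test were psbT (-1.78 ± 0.48), psbH (-1.24 ± 0.27), psbK (-1.16 ± 0.24), psbL (-0.55 ± 0.13), psbZ (-0.52 ± 0.15) and psbJ (-0.43 ± 0.11). So were psbE (-0.93 ± 0.26) and psbF (-0.65 ± 0.18), which encode the chains of the cytochrome bound to the reaction centre. Array A was low for both, and without it the changes were -0.44 for psbE and -0.36 for psbF, still past the threshold. Not past it were psbN (-0.80 ± 0.72), psbI (-0.31 ± 0.23) and psbM, of which psbN, at -2.02, and psbI, at -0.66, passed without array A. The signal of psbM was 13.36, 12.98 and 12.77 in untreated mkk1/mkk2 and 13.12, 13.03 and 12.99 in Col-0, with a difference of -0.01 ± 0.13 and a 95% interval of -0.28 to 0.26. That interval leaves out a change of the size seen in psbD, although the probe set of psbM was the brightest of the complex at a mean of 12.94.

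In photosystem I 3 of 5 members fell and the median change was -0.86. The 2 core proteins, which carry most of the pigments and the first electron carriers, come from psaA and psaB. For psaA the values were 6.27, 7.59 and 7.30 in untreated mkk1/mkk2, against 9.59, 9.07 and 8.23 in Col-0, a change of -1.91 ± 0.48 (SE, n = 3 each, adjusted p = 0.00360 by limma), the farthest from the median of the complex. For psaB they were 12.46, 12.31 and 11.70 in untreated mkk1/mkk2, against 13.13, 12.71 and 12.53 in Col-0, a change of -0.63 ± 0.19 (adjusted p = 0.0131 by limma). Neither gene overlapped between the groups. The small subunit psaI changed by -1.62 ± 0.25 (adjusted p = 3.07e-05 by limma). The iron-sulphur subunit psaC, at -0.86 ± 0.46, and psaJ, at -0.45 ± 0.23, did not pass the test, but did without array A, at -1.55 and -0.68. The probe sets of the complex ranged in mean signal from 6.47 for psaC to 12.77 for psaB, and signals of different probe sets are no order of transcript amounts.

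In the cytochrome b6f complex 3 of 6 members fell, with a median change of -1.15. The member farthest from that median was petG, a small subunit, which read 5.85, 5.59 and 5.66 in untreated mkk1/mkk2 and 9.72, 7.67 and 7.07 in Col-0, a change of -2.45 ± 0.50 (SE, n = 3 each, adjusted p = 0.000591 by limma). Its Col-0 arrays were spread over more than 2 log2 units, with A far above the others, yet none came near those of the double mutant. The neighbouring small-subunit gene petL changed by -1.52 ± 0.55 and petA, for cytochrome f, by -1.17 ± 0.26. The genes of the 2 other large subunits did not pass the test. For petB, cytochrome b6, the values were 12.55, 12.70 and 12.54 in untreated mkk1/mkk2 and 12.96, 12.72 and 12.85 in Col-0, a difference of -0.25 ± 0.16. For petD, subunit IV, the difference was -1.13 ± 0.54 (adjusted p = 0.120 by limma), and its probe set was the dimmest of the complex at a mean of 5.20. Without untreated mkk1/mkk2 array A petD did pass, at -1.61 (adjusted p = 0.0307 by limma), and 4 of 6 members fell. The third small subunit, petN, differed by -0.42 ± 0.55, and by -1.1 without that array, short of the threshold in both.

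Rubisco fixes carbon dioxide, and its large subunit rbcL is the one member outside the light reactions. The signal of rbcL was 10.33, 9.64 and 9.29 in untreated mkk1/mkk2, against 11.71, 10.99 and 10.44 in Col-0. All 3 arrays of the double mutant lay below those of Col-0, the change was -1.29 ± 0.35 (SE, n = 3 each, adjusted p = 0.00662 by limma), and it kept its direction and call in 30 of 32 alternative fits. The changes of atpA, atpI, ndhK, atpF and psaA kept their call in all 32.

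**Figure D3:**
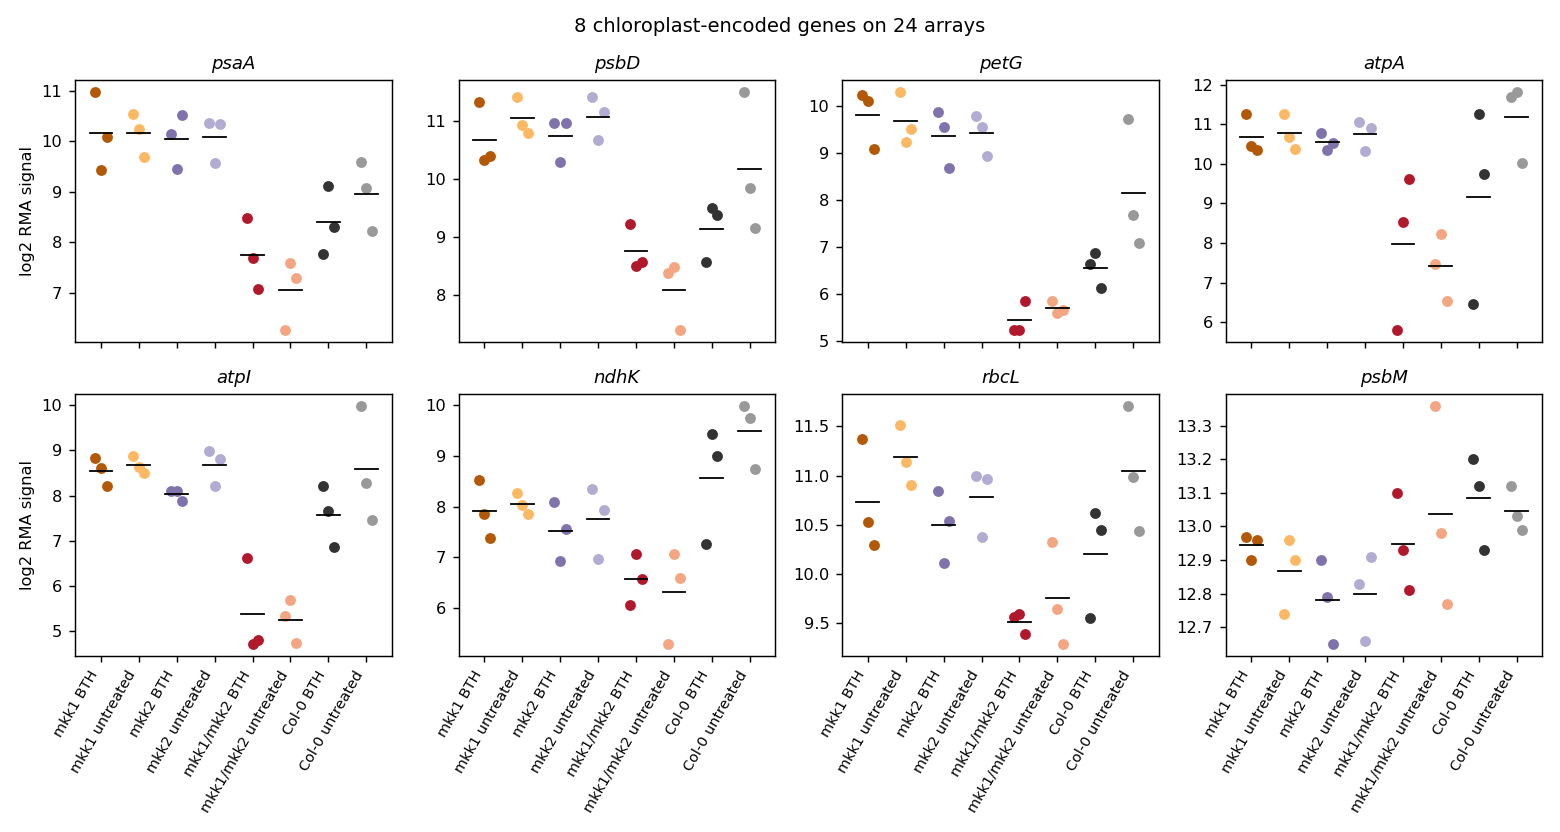
Log2 signal of 8 members (vertical axes, which do not start at 0 and differ between panels) on each of the 24 arrays by group (horizontal axis), with group means as black lines. For psaA, psbD, petG, atpA, atpI, ndhK and rbcL the untreated mkk1/mkk2 arrays lie below all untreated Col-0 arrays, while psbM spans 12.65 to 13.36 over all 24 arrays and overlaps between these 2 groups.

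After BTH the median of the members again lay below Col-0 in the double mutant, but by less. No member passed the test for a difference between the BTH responses of mkk1/mkk2 and Col-0. Of the 43 members 6 fell and 0 rose (limma, adjusted p under 0.05). Of all probe sets 10.2% fell and 21.6% were called in either direction. The share of members that fell thus lay near that of all probe sets. The median change of the members was -0.45. The 6 were atpI (-2.19 ± 0.52), ndhK (-2.00 ± 0.54), ndhJ (-1.93 ± 0.43), psaI (-1.24 ± 0.25), atpF (-1.18 ± 0.42) and petA (-0.83 ± 0.26). For atpI the arrays read 6.63, 4.72 and 4.81 in BTH-treated mkk1/mkk2, against 8.21, 7.65 and 6.87 in BTH-treated Col-0. For psaI, which had the smallest adjusted p (0.000897 by limma), they read 9.82, 10.26 and 10.27 in BTH-treated mkk1/mkk2, against 10.97, 11.71 and 11.39 in BTH-treated Col-0. The groups did not overlap in either gene.

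By complex, the median change after BTH was -1.18 in ATP synthase, -0.73 in NDH, -0.69 in cytochrome b6f, -0.36 in photosystem I and -0.28 in photosystem II, where 0 of 15 members passed the test. In photosystem II 0 members had an unadjusted p under 0.05 as well. The arrays of atpA spread over 5.80, 8.53 and 9.61 in BTH-treated mkk1/mkk2 and 6.46, 11.26 and 9.75 in BTH-treated Col-0, so that the change of -1.18 ± 0.92 did not pass the test. In BTH-treated Col-0 it was array A, which stands apart, that was low. With array weights 27 members were lower, without the 3 arrays that stand apart 12, and the number ran from 3 without BTH-treated Col-0 B to 10 without untreated Col-0 A. The shares of all probe sets called in these alternative fits are not given here.

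Few members passed the test for a response to BTH in any genotype. In BTH-treated mkk1, mkk2 and mkk1/mkk2 no member passed the test against untreated plants (0 of 43 by limma in each), and 0, 0 and 4 had an unadjusted p under 0.05, while 8.57%, 10.7% and 0.334% of all probe sets were called. The median changes were -0.12 in mkk1, -0.14 in mkk2 and 0.12 in mkk1/mkk2, and leaving out 1 array at a time moved them between -0.28 and 0.0017, between -0.31 and -0.047 and between -0.048 and 0.17, so that those of mkk1 and mkk1/mkk2 have no settled sign. In mkk1 the widest differences were ndhE (-1.03 ± 0.54) and ndhD (-0.85 ± 0.45) below and petG (0.13 ± 0.50) and psbM (0.08 ± 0.13) above. In mkk2 they were psbB (-0.65 ± 0.49) and atpI (-0.64 ± 0.52) below and petD (0.26 ± 0.54) and psbA (0.14 ± 0.57) above. In mkk1/mkk2 they were petN (-0.99 ± 0.55) and psbN (-0.66 ± 0.72) below and ndhA (1.18 ± 0.56) and ndhI (0.99 ± 0.49) above. Untreated array A of mkk1/mkk2 was low in ndhA and ndhI, as in some other members. It was high in petN, at 9.19 against 6.99 and 7.36 on B and C, and in psbN, at 10.49 against 6.99 and 6.67.

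In Col-0 41 of the 43 members were lower after BTH, with a median change of -0.53, but only 2 passed the test, against 4.27% of all probe sets that fell and 8.82% called in either direction. These were petG (-1.61 ± 0.50, adjusted p = 0.0478 by limma) and atpF (-1.36 ± 0.42, adjusted p = 0.0478 by limma). The signal of petG was 6.63, 6.87 and 6.13 in BTH-treated Col-0, against 9.72, 7.67 and 7.07 in untreated Col-0, without overlap. That of atpF was 7.73, 9.03 and 8.69 in BTH-treated Col-0, against 11.01, 9.58 and 8.93 in untreated Col-0, with overlap. Both calls lie at the edge of the threshold, and across 32 alternative fits petG lost it in 21 and atpF in 19.

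Untreated Col-0 A stood above its group in many members, and BTH-treated Col-0 A below its own in some. Without untreated Col-0 A the median change of the members after BTH was -0.20 and 0 passed, and without untreated Col-0 C it was -0.81 and 5 passed. With the 3 arrays that stand apart left out 0 passed. The GAPDH control has probe sets at both ends of its transcript, and the 3' one exceeded the 5' one, as it does more in degraded RNA, by 0.60 to 0.73 in BTH-treated Col-0 and 0.70 to 1.18 in untreated Col-0, and its part in these values was not tested. By complex the median response of Col-0 was -0.88 in ATP synthase, -0.87 in NDH, -0.67 in cytochrome b6f, -0.47 in photosystem II and -0.38 in photosystem I. The gene with the widest difference, atpA, differed by -2.02 ± 0.92 (adjusted p = 0.219 by limma).

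The difference between each mutant's BTH response and that of Col-0 was tested as an interaction. No member passed in mkk1, mkk2 or mkk1/mkk2 (0 of 43 by limma in each), and 1, 1 and 7 had an unadjusted p under 0.05, while 0%, 0.022% and 2.33% of all probe sets were called. The median difference was 0.36 in mkk1, 0.36 in mkk2 and 0.62 in mkk1/mkk2, and the 3 share the Col-0 arrays. In mkk1 the widest were atpA (1.93 ± 1.31) and petG (1.74 ± 0.70) above and psaJ (-0.24 ± 0.33) and atpE (-0.09 ± 0.33) below. In mkk2 they were atpA (1.82 ± 1.31) and petG (1.55 ± 0.70) above and psaB (-0.07 ± 0.27) and atpE (-0.06 ± 0.33) below. In mkk1/mkk2 they were atpA (2.60 ± 1.31) and atpF (1.83 ± 0.59) above and psbN (-0.18 ± 1.01) and petN (-0.13 ± 0.78) below.

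The single mutants differed from Col-0 in few members. Untreated mkk1 had 1 higher and 2 lower, against 9.46% of all probe sets higher, 7.83% lower and 17.3% called in either direction, and untreated mkk2 had 1 lower, against 4.13% lower and 7.63% called in either direction. The NDH gene ndhJ was lower in both, by -1.52 ± 0.43 in mkk1 and -1.60 ± 0.43 in mkk2 (adjusted p = 0.0202 and 0.0291 by limma). Its arrays read 9.32, 9.24 and 8.70 in untreated mkk1, 9.60, 8.15 and 9.26 in untreated mkk2 and 11.03, 10.65 and 10.14 in untreated Col-0. Both single mutants lay wholly below Col-0 in this gene. In untreated mkk1 psaI was lower by -0.74 ± 0.25 and petG higher by 1.52 ± 0.50 (adjusted p = 0.0437 and 0.0395 by limma), calls that were lost in 11 and 6 of 32 alternative fits. The call of ndhJ was lost in 3 for mkk1 and 4 for mkk2. The count of called members was 8 for mkk1 and 2 for mkk2 without the 3 arrays that stand apart.

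After BTH petG was the only member past the test in either single mutant, and it was higher in both. Of all probe sets 0.62% were called in mkk1, 0.343% as higher, and 1.83% in mkk2, 0.954% as higher. Its signal was 10.23, 10.10 and 9.09 in BTH-treated mkk1 and 9.86, 9.54 and 8.68 in BTH-treated mkk2, against 6.63, 6.87 and 6.13 in BTH-treated Col-0. Every single-mutant array lay above every Col-0 array, and the changes were 3.26 ± 0.50 in mkk1 and 2.82 ± 0.50 in mkk2 (adjusted p = 0.00796 and 0.00725 by limma), or 9.60-fold and 7.05-fold higher. Both calls held in all 32 alternative fits. By their bioC minus bioD values the single mutants and Col-0 fall into different array sets. Genotype and array set therefore cannot be told apart in the comparisons of single mutants with Col-0. With array weights 13 members were called in mkk1 and 16 in mkk2 after BTH. The share of all probe sets called with these weights is not given here, so the counts cannot be set against it.

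Against the mean of all 43 members on the same array, each complex has a relative level, of which only differences between groups can be read, since probe sets differ in brightness. ATP synthase lay 0.11 ± 0.33 below that mean in untreated mkk1/mkk2, as a relative level of -0.11, against 0.75 ± 0.16 above it in untreated Col-0 (SD, n = 3 each), and the arrays did not overlap. After BTH the relative level of ATP synthase was 0.15 ± 0.14 in mkk1/mkk2 and 0.52 ± 0.20 in Col-0, again without overlap. In the single mutants it lay between 0.81 and 0.92 in all 4 groups. For photosystem II the difference ran the other way, with a relative level of at least 0.94 on the untreated mkk1/mkk2 arrays against 0.56 to 0.83 on those of untreated Col-0, and 1.11 ± 0.06 in BTH-treated mkk1/mkk2 against 0.83 ± 0.10 in BTH-treated Col-0, without overlap in either. Photosystem I shifted the same way as photosystem II in untreated plants, at 0.29 to 0.38 in mkk1/mkk2 against -0.13 to 0.15 in Col-0, without overlap. After BTH its arrays overlapped, at 0.23 to 0.46 in mkk1/mkk2 and 0.18 to 0.25 in Col-0. For NDH the untreated double mutant, at -1.48 ± 0.45, overlapped with Col-0, at -1.07 ± 0.04. These scores over chosen members are given with no test.

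Among the members, the size of the change went with the signal of the probe set. The 16 members with a mean signal of at least 11 had a median change of -0.64 in untreated mkk1/mkk2 against Col-0, with 12 called, and the 27 members below 11 a median of -1.91, with 21 called. The correlation of signal with change across the 43 members was 0.44 (Pearson) and 0.52 (Spearman), which is across genes that share arrays and is no test. The split appeared within each complex with both kinds: -0.77 against -3.17 in ATP synthase (2 and 4 members), -0.88 against -2.39 in NDH (2 and 8), -0.59 against -1.24 in photosystem II (8 and 7), -0.71 against -1.33 in cytochrome b6f (2 and 4) and -0.54 against -1.62 in photosystem I (2 and 3). Photosystem II thus had the most bright probe sets, and ATP synthase and NDH kept larger medians than it among the dimmer ones. Over all probe sets the bright ones did not change less, with a median absolute change of 0.52 for the 486 at or above 11 and 0.29 for the others. The complexes themselves followed the order of signal only in part. Photosystem II and photosystem I had the highest median signals, at 11.37 and 10.88, and the smallest median changes, at -0.93 and -0.86. NDH had the lowest median signal, at 8.37, and a median change exceeded only by that of ATP synthase. Out of this order, ATP synthase had the largest median change but a higher median signal than NDH and than cytochrome b6f, which lay at 8.93. The part of probe set brightness in these values was not tested.

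**Figure D4:**
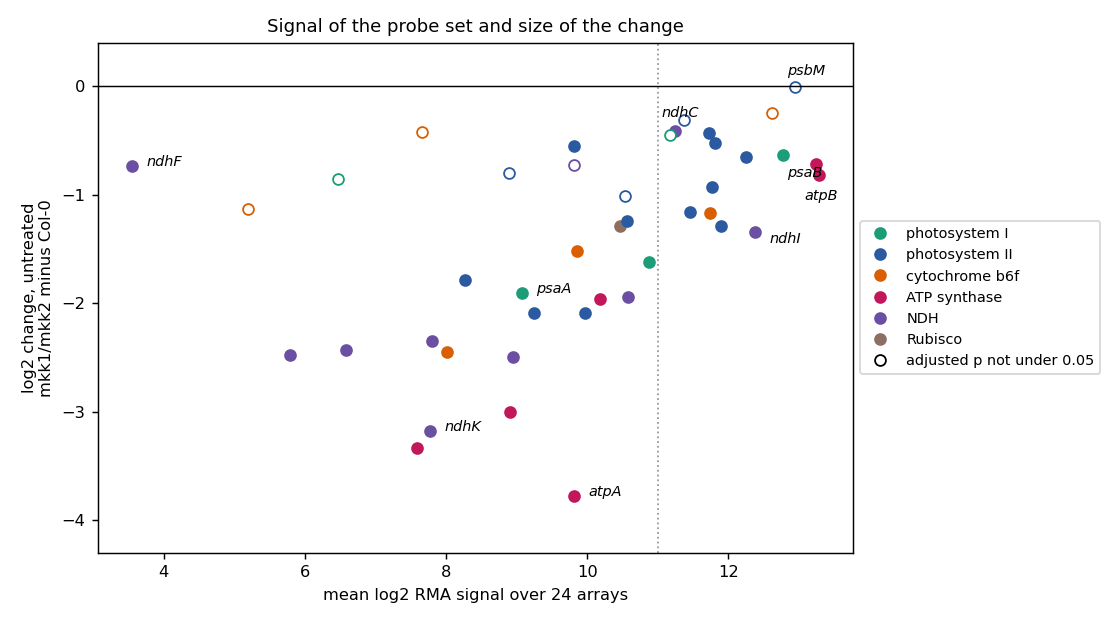
Log2 change in untreated mkk1/mkk2 minus untreated Col-0 (vertical axis) against the mean log2 signal over 24 arrays (horizontal axis) for each of the 43 members, coloured by complex, with open points for adjusted p not under 0.05 and a dotted line at a signal of 11. The members right of the line lie between -1.35 and -0.01, and those below -2 all lie left of it.

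Position on the plastid genome went with how members varied together. Of the pairs of members, 33 have adjacent locus numbers, and their median correlation over the 24 arrays was 0.77, against 0.52 for the 870 other pairs. Within groups, after group means were taken out, the medians were 0.59 and 0.40. For pairs of the same complex the correlations were hardly higher, with medians of 0.54 for 190 pairs of 1 complex and 0.52 for 713 pairs of different complexes, and within groups the order turned, at 0.36 and 0.41. Among adjacent genes the closest pairs were atpE and atpB (0.98), ndhI and ndhA (0.98), ndhE and ndhG (0.97), psbD and psbC (0.95) and ndhJ and ndhK (0.95), and in the first and the fourth the genes overlap. Genes that were not directly adjacent could be as close, with 0.97 for ndhK and psaI, which belong to different complexes, and 0.96 for psbC and psaB. These are descriptions with no test, since all pairs share the arrays and the group differences.

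Adjacent genes could also part sharply. In the stretch ndhJ, ndhK, ndhC, atpE, atpB and rbcL, the changes in untreated mkk1/mkk2 against Col-0 were -2.49 and -3.18 for the first pair and -0.41, -0.72 and -0.82 for the next 3 genes, and the correlation of atpB with rbcL was 0.27. In the stretch psbK, psbI, atpA, atpF, atpH and atpI, psbI differed by -0.31 and its neighbour atpA by -3.77. The least alike neighbours were psbM and psbD, with a correlation of -0.32 and changes of -0.01 and -2.09. In the same stretch all 4 genes from atpA to atpI fell, atpH least, by 1.96 on the log2 scale.

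**Figure D5:**
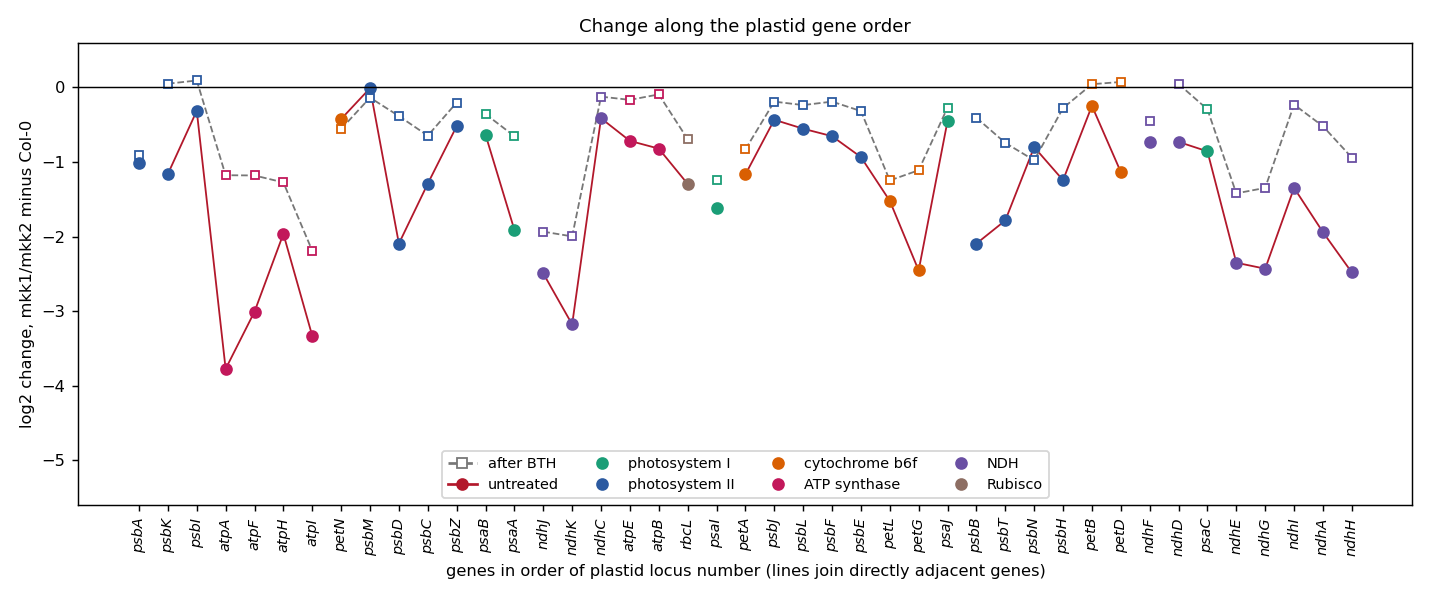
Log2 change in mkk1/mkk2 minus Col-0 (vertical axis) for the 43 members in order of plastid locus number (horizontal axis), untreated as filled circles with solid lines and after BTH as open squares with dashed lines, where lines join directly adjacent genes and colours mark complexes. In both conditions atpA to atpI and ndhJ to ndhK lie low, while ndhC, atpE and atpB lie between -0.82 and -0.41 in untreated plants and close to 0 after BTH.

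The rest of the plastid genome showed the same direction. Where 17.2% of all probe sets fell in untreated mkk1/mkk2 against Col-0, 21 of the 26 other plastid genes with their own probe set fell. Of these 26 genes 0 rose, and their median change was -1.62. Among them 12 of 15 genes of ribosomal proteins and 3 of 4 genes of the plastid-encoded RNA polymerase fell. Array A was low for many of them, and without it 15 of the 26 fell, with a median of -1.04, among them 8 of 15 ribosomal protein genes, with a median of -0.93, and 1 of 4 polymerase genes. The largest changes were those of accD, a subunit of the enzyme that starts fatty acid synthesis (adjusted p = 0.000621 by limma), rpl16 (-2.81 ± 0.58), a ribosomal protein, and ycf3 (-2.58 ± 0.54), a factor for photosystem I assembly. After BTH 2 of the 26 fell, ycf4 (-1.13) and cemA (-1.12), beside 10.2% of all probe sets. A difference between the photosynthesis genes and the other plastid genes was not tested.

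Nuclear photosynthesis genes, which include partners of the complexes and enzymes of the Calvin cycle, were lower too, with a smaller median change. Beside 17.2% of all probe sets, 8 of 13 measured nuclear photosynthesis genes fell in untreated mkk1/mkk2 against Col-0 and 0 rose. Their median change was -0.48, against -1.17 for the members. These nuclear genes were bright, with a mean signal of 12.09 in untreated Col-0, and the members with a signal of at least 11 had a median of -0.64. The difference between these lists was not tested. They included LHCB4.3, a minor antenna protein of photosystem II (-2.10 ± 0.22), SBPASE, an enzyme of the Calvin cycle (-1.72 ± 0.28), PRK, another of its enzymes (-1.01 ± 0.36), and ATPC1, the gamma subunit of chloroplast ATP synthase (-0.78 ± 0.17). After BTH 5 of the 13 fell, beside 10.2% of all probe sets. Of 19 measured nuclear genes for expression, editing or assembly of plastid products, 10 fell in untreated mkk1/mkk2 and 6 after BTH. The shares of all probe sets are those just given. The largest changes untreated were those of CRR21, an editing factor for ndhD (-2.71 ± 0.39), CRR41 (-2.68 ± 0.29) and CRR42 (-2.26 ± 0.18), which serve the assembly of the NDH complex, and LPA19, which serves that of photosystem II (-1.74 ± 0.20). The transcript of ndhD itself did not pass the test in that comparison, and that of psbF, the editing target of LPA66 (-1.44 ± 0.23), fell by 0.65.

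In other comparisons the nuclear list and the members were called in unlike numbers. In BTH-treated Col-0 against untreated 6 of the 19 fell, where 4.27% of all probe sets did, led by CRR21 (-1.64 ± 0.39), CRR41 (-1.29 ± 0.29) and CRR42 (-1.09 ± 0.18), beside 2 of 43 members, although the median change was -0.39 for the list and -0.53 for the members. In BTH-treated mkk2 against untreated 6 of 19 fell and 0 of 43 members, beside 10.7% of all probe sets called in either direction. In untreated mkk1 against Col-0 6 of 19 fell and 1 rose, beside 7.83% of all probe sets lower and 9.46% higher. Differences between the lists were not tested.

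Some markers of tissue and state differed between untreated mkk1/mkk2 and untreated Col-0, and others did not. Of 23 green leaf markers listed, 6 were measured, and 3 of these fell in untreated mkk1/mkk2, beside 17.2% of all probe sets. The 3 were LHCB4.3, SBPASE and PRK, already counted among the nuclear photosynthesis genes. The mean of the 6 was 11.28 to 11.68 in untreated mkk1/mkk2, against 12.08 to 12.50 in untreated Col-0, while RCA and LHCB4.1, 2 of the 6 that serve Rubisco and the antenna, differed by -0.17 ± 0.24 and 0.08 ± 0.15. Of 10 root markers 2 were measured, with means of 6.33 to 6.88 in untreated mkk1/mkk2 and 4.13 to 4.79 in untreated Col-0. Of these PYK10, a root beta-glucosidase, was higher by 4.35 ± 0.92 and EXPA7, a root hair expansin, differed by -0.01 ± 0.23. Of 7 senescence markers 3 were measured, and their means were 6.47 to 7.45 in untreated mkk1/mkk2 and 5.63 to 7.06 in untreated Col-0. Of these SAG101, a regulator of defence and senescence, was higher by 1.56 ± 0.29 (adjusted p = 0.000273 by limma). The others, SAG29 at -0.37 ± 0.37 and WRKY53 at 0.50 ± 0.63, did not pass the threshold. Of 7 defence markers 4 were measured, all higher in untreated mkk1/mkk2, at means of 9.69 to 10.56 against 5.62 to 5.97 in untreated Col-0. The GAPDH difference was 0.29 to 1.27 in untreated mkk1/mkk2 and 0.70 to 1.18 in untreated Col-0, and the signal of a 25S ribosomal RNA control was 10.65 to 13.12 in untreated mkk1/mkk2 and 11.18 to 11.82 in untreated Col-0. The part of tissue make-up, defence state and RNA quality in the members' values was not tested.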

How the data were processed

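Transcript levels were measured in 24 samples, each on 1 ATH1 array. The authors deposited 1 table of log2 expression values for 22810 probe sets, made with RMA per the submitters' processing notes; its version and which arrays were normalized together are not given in the sources used here. RMA corrects background, sets arrays to a common distribution and summarizes probes. That common distribution can shift part of a change that runs one way across many genes, and array medians lay between 5.57 and 5.78. The 64 AFFX control probe sets served only as quality measures, and 22746 were tested with no filter and no further transformation.

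Groups and replicate letters came from the titles, and no 2 arrays held identical values (0 pairs). Genes were named from the platform annotation and a RefSeq gene table (TAIR10.1), and a gene with several probe sets took the brightest. The coordinates of the probes' build are not stated, so none are given, and neighbours were defined by consecutive locus numbers. No sequence was used here, nor were genes of the mitochondrial genome. Nuclear genes of the photosynthesis list were chosen by the first letters of their symbols.

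One linear model with a mean for each of 8 groups was fitted by limma (version 3.58.1, lmFit then eBayes; R version 4.3.3; tables read by data.table, version 1.17.8), and 13 comparisons were taken from it, with Benjamini-Hochberg adjustment over 22746 probe sets and a threshold of 0.05. The fits were checked on simulated data. Complexes are described by counts and medians with no test. Members, lists and tests were chosen with earlier results of these data known, although the rule for members used no measured value. The genes named were psbA, psbD, psaA, psaB, petB, atpB and rbcL in any case, up to 4 called members with the largest change in each direction of a comparison, or 2 in each direction where none was called, the brightest, dimmest and most divergent member of each complex, and up to 3 called genes of each other list; other members and list genes are named to complete a complex or a contrast, after their values were seen.

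Replicate letters A, B and C recur in all groups. Over all probe sets, same-letter arrays deviated from their group means with correlations of -0.21 to 0.61 (median 0.04) in 10 comparisons, and every pair exceeded 0.1 only for BTH-treated against untreated mkk1/mkk2 (0.31, 0.29 and 0.17). There the letters may pair the arrays, from the data and not from the labels. The main fit did not pair them, and the replicate block fits an effect for each letter that all 8 groups share. With that block 0 members were called, as without it, but a pairing inside mkk1/mkk2 alone was not fitted. The alternatives were array weights, the replicate block, leaving out the 3 arrays that stand apart or each array in turn, fitting only the groups compared, a signal filter, the mean of a gene's probe sets, centring each array and a trended, robust eBayes. The number of arrays limits the precision.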

Additional observations from a re-analysis of the deposited data

How the results depend on the processing

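No named member that passed its test turned sign in any alternative run, but calls were lost and gained: in untreated mkk1/mkk2 atpB lost its call in 22 of 32 fits and psbA gained one in 3, and in BTH-treated Col-0 petG lost its call in 21. Medians that lay near 0 turned sign, as given with their values. With array weights, which gave untreated mkk1/mkk2 A a weight of 0.08, called members were 5 in BTH-treated Col-0, 10 in untreated mkk1 and 7 in untreated mkk2 against Col-0, 13, 16 and 27 in mkk1, mkk2 and mkk1/mkk2 against Col-0 after BTH, and 2 for the mkk1/mkk2 minus Col-0 response. The weighted medians were -0.062, -0.17 and -0.36 for photosystem I, photosystem II and NDH in BTH-treated Col-0, -1.22 and -1.67 for photosystem I and NDH in untreated mkk1/mkk2, and 0.039 for the members' mkk2 minus Col-0 response. With the replicate block 2 members were called in mkk2 and 10 in mkk1/mkk2 against Col-0 after BTH, where the letters are not shown to pair the arrays, and no other count of called members crossed 1.5 times. Without the 3 arrays that stand apart, an alternative chosen with the data known, called members were 0 in BTH-treated Col-0, 8 in untreated mkk1, 2 in untreated mkk2, and 4 and 12 in mkk2 and mkk1/mkk2 after BTH. The medians there were -0.43 for NDH in BTH-treated Col-0, -1.47, -1.46 and -1.76 for the members, photosystem I and NDH in untreated mkk1/mkk2, and 0.02 for the members' mkk2 minus Col-0 response. With only the arrays of the groups compared, which leaves fewer arrays to estimate the spread, called members were 1 in BTH-treated mkk1, 0 in BTH-treated Col-0, 5, 0 and 11 in untreated mkk1, mkk2 and mkk1/mkk2 against Col-0, and 2 in mkk2 after BTH. In untreated mkk2 the count was 3 with probe sets of mean signal 5 or more, 4 with arrays centred on their medians and 2 with a trended, robust eBayes, and in mkk2 after BTH it was 2 under the first pair of these. Taking the mean of a gene's probe sets altered nothing, since each member has 1. Shares of all probe sets called are given for the main fit alone. Counts of members under any alternative, leaving out single arrays included, cannot be set against such a share.

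Leaving out each array in turn (24 fits), called members ranged over 0 to 1 in BTH-treated mkk1/mkk2, 0 to 5 in BTH-treated Col-0 (0 in 14 fits), 0 to 4 in untreated mkk1 (0 without untreated Col-0 B), 0 to 6 in untreated mkk2 (0 without untreated mkk2 B, 6 without untreated mkk1/mkk2 A), 22 to 37 in untreated mkk1/mkk2, 1 to 4, 1 to 5 and 3 to 10 in mkk1, mkk2 and mkk1/mkk2 after BTH, and 0 to 1 for the mkk1/mkk2 minus Col-0 response. Medians ranged from -0.34 to 0.10 for photosystem I in BTH-treated mkk1. In BTH-treated Col-0 they ranged from -0.81 to -0.20 for the members, -0.65 to -0.15 for photosystem II, -1.16 to -0.094 for cytochrome b6f, -1.39 to -0.25 for ATP synthase and -1.14 to -0.30 for NDH, lowest without untreated Col-0 C and highest without untreated Col-0 A. In untreated mkk1/mkk2 they ranged from -1.47 to -0.93 for the members, -1.46 to -0.44 for photosystem I, -1.54 to -0.67 for cytochrome b6f, -2.94 to -1.91 for ATP synthase and -2.40 to -1.58 for NDH. They ranged from -1.32 to -0.52 for ATP synthase in mkk1/mkk2 after BTH and from 0.055 to 0.62 for the members' mkk1 minus Col-0 response. The cause of these shifts was not tested.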
